A study of Mus musculus with 12 samples.

Results

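The semaphorins, plexins and neuropilins described here are 31 mouse genes, chosen by gene family from the 21883 protein-coding genes on the main chromosomes of the RefSeq annotation of GRCm38.p6, the assembly behind mm10. They are 20 semaphorin ligands of classes 3 to 7, 7 plexins, 2 neuropilins and the 2 plexin domain containing genes. H3K27ac, the acetylation of histone H3 at lysine 27 that marks active promoters and enhancers, was mapped in lysates of whole cerebral cortex from mouse embryos at E15.5. The conditional knockout (cKO) embryos carried Emx1-Ires-Cre and Prdm16 flox/flox, and the control (WT) embryos carried Prdm16 flox/flox with no Cre named, so the floxed allele of Prdm16 was common to both groups. Each genotype had 3 H3K27ac libraries, and the 6 input libraries were not analysed here. PRDM16 is a zinc-finger protein that regulates chromatin in neural progenitors, and Emx1-Ires-Cre acts in the progenitors of the dorsal forebrain and their progeny, so cells that enter the cortex from elsewhere (interneurons, vessels, microglia) keep the floxed gene intact. In such a bulk lysate, fewer cells of a type and less acetylation per cell cannot be told apart. Whether the replicates were separate embryos is not stated in the labels, so p-values describe the spread between these libraries, which could be technical.

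Semaphorins are guidance cues that steer growing axons and migrating neurons, and most act by binding plexins, whose cytoplasmic part switches small GTPases and so remodels the cytoskeleton. Class 3 semaphorins are secreted, and most of them need a neuropilin as the ligand-binding partner of a plexin. The classes 4, 5 and 6 are transmembrane proteins, and the class 7 semaphorin is anchored to the membrane by a lipid. In the developing cortex these genes are known for guiding callosal and corticofugal axons, for radial migration and for the orientation of dendrites.

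The value used throughout is the covered length of a locus, the number of bases under called peaks between 20 kb below and 20 kb above the gene body. It was scaled so that each list had the same total of 72.7 Mb, and it grows with the number and width of peaks and not with their height. The lists held 55007 to 59200 peaks in cKO libraries and 48160 to 75552 in WT libraries, covering 63.5 to 72.9 Mb in cKO and 53.9 to 92.1 Mb in WT. The second WT list was the longest and the third WT list the shortest. Library identifiers put replicates 1 and 2 of both genotypes in 1 set and replicate 3 of both in another, and this set entered each fit as a batch, although the labels do not say what the identifiers mark. Without it 39 genes were called over the whole table, and 0 members. The Prdm16 locus had 94626, 95103 and 99981 bp in cKO libraries, against 80928, 76294 and 80857 bp in WT libraries (log2 difference 0.28 ± 0.11 SE, limma, adjusted p = 0.359); the acetylation of a locus does not check whether the floxed part was removed. Cortical markers had peaks in every library: Emx1 had 18103, 18826 and 20881 bp in cKO libraries, against 17981, 19973 and 19800 bp in WT libraries, and Tbr1 had 23237, 23185 and 27065 bp in cKO libraries, against 20442, 19360 and 27072 bp in WT libraries. Interneuron and ventral forebrain markers summed to 118 to 130 kb in cKO and 96.7 to 133 kb in WT, with peaks in every library at 6 of 8 genes, and endothelial markers to 11.8 to 12.7 kb in cKO and 10.6 to 14.1 kb in WT, with 3 of 6 genes. Microglial markers summed to 11.1 to 12.4 kb in cKO and 12.6 to 13.8 kb in WT (4 of 6 genes in every library), and meningeal and pericyte markers to 11.3 to 12.1 kb in cKO and 12.6 to 16.6 kb in WT (3 of 7 genes). In these last lists the summed ranges of the genotypes did not overlap, and 0 of the 3 genes tested in each passed. Of their single genes only Cx3cr1 and Dcn did not overlap between genotypes. Both averaged under the 1000 bp needed for testing. Of all genes tested, 4.55% had every cKO library below every WT library. Cx3cr1 had 0, 270 and 0 bp in cKO libraries, against 1689, 1221 and 724 bp in WT libraries. Dcn had 0, 341 and 0 bp in cKO libraries, against 801, 816 and 1145 bp in WT libraries. The part of such cells in the results was not tested. The markers at 0 in all 6 libraries were Nkx2-1, Tek, Foxd1, Alb and Krt5. The 4 non-neural markers summed to 4.55 to 6.49 kb in cKO and 5.19 to 5.98 kb in WT.

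For 24 of the 31 members the RefSeq table of promoters (GRCm38.p6) holds the sequence from 250 bases before to 50 bases after a start site, 35 promoters in all; Sema3b, Sema3f, Sema6a, Plxna1, Plxna4, Plxdc1 and Plxdc2 have no entry. The 5 below were chosen because they span the states that the peak lists show at member start sites: full cover in all 6 libraries at CpG-rich promoters, partial cover, full cover at a CpG-poor promoter, and no peak at all. Capitals mark the GC box, GGGCGG or its other-strand form CCGCCC, which is the motif bound by Sp-family factors. The first 2 belong to Sema6d on chromosome 2, whose upstream promoter is at chr2:124089719-124090018 (plus strand, 14 CpG dinucleotides, 2 GC boxes) and whose downstream promoter is at chr2:124653331-124653630 (plus strand, 6 CpG, no GC box). The third is the promoter of Plxnc1 at chr10:94944796-94945095 (minus strand, 30 CpG, 4 GC boxes), the next that of Nrp2 at chr1:62703067-62703366 (plus strand, 37 CpG, 5 GC boxes), and the last that of Sema3a at chr5:13396534-13396833 (plus strand, 2 CpG, no GC box).
Sema6d upstream: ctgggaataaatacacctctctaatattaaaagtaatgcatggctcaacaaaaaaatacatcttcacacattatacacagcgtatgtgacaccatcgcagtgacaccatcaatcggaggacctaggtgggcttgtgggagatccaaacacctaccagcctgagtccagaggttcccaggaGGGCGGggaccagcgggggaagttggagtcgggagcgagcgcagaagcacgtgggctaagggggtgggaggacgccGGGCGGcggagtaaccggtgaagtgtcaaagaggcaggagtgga
Sema6d downstream: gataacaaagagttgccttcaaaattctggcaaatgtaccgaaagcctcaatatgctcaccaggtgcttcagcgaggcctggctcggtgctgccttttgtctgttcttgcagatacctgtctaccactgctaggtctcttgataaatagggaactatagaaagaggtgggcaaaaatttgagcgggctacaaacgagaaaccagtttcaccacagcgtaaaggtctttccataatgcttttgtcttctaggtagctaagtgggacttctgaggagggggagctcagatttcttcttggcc
Plxnc1: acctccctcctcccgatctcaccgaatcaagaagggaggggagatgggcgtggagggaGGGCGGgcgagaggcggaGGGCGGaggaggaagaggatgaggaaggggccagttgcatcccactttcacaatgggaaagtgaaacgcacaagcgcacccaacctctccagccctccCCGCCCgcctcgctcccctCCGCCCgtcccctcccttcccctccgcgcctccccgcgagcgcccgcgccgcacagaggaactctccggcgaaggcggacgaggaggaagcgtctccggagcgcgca
Nrp2: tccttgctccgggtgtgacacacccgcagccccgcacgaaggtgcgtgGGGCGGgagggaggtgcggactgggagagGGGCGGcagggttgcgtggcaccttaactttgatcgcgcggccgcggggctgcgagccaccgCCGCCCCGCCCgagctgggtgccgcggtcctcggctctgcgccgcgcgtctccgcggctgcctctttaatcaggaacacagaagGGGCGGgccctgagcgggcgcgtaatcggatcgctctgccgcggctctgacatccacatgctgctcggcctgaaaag
Sema3a: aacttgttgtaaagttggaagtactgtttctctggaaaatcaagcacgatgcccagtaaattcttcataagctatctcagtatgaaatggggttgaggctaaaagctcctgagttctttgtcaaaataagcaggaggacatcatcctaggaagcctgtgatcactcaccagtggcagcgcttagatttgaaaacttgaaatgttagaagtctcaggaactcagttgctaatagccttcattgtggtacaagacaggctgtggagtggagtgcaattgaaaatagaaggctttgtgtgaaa

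The promoters of Plxnc1 and Nrp2 and the downstream promoter of Sema6d lay wholly under a peak, 300 of 300 bases, in all 3 cKO and all 3 WT libraries. At the upstream Sema6d promoter peaks reached over 202, 198 and 109 bases in cKO libraries and 187, 188 and 161 bases in WT libraries. No library had a peak over the listed Sema3a promoter. The strongest peak of the Sema3a window began within 2 kb downstream of that promoter in every library, for example at chr5:13398361-13400777 in the first cKO library.

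Across the 31 members, 0 loci passed the test in either direction, where 106 of all 15355 genes tested did (0.69%; limma with batch, Benjamini-Hochberg over all genes, adjusted p under 0.05). Of the 106, 57 were longer in cKO (0.371% of genes tested) and 49 shorter (0.319%); quantile normalization in place of scaling called 22 genes, 8 of them longer. All 31 members had a mean covered length of at least 1000 bp, the minimum for testing, so none was lost to that filter. The median member had 8651 bp, or 6.54% of its window, against 4057 bp and 5.56% for all genes tested. Differences ran from -0.37 to 0.30 on the log2 scale, with 16 members above 0 and 15 below (7 and 24 without scaling, 13 and 18 with quantile normalization), a median of 0.02 and a median size of 0.11. Over all genes tested the median was 0.05 and the median size 0.10, and 65.3% lay above 0. Without scaling the medians were -0.09 for the members and -0.05 for all genes. An unadjusted p under 0.05 was reached by 4 members, Sema6a, Sema3d, Sema3a and Plxdc2, where 9.95% of all genes reached it. In 5 members, Sema6a, Sema6b, Sema6d, Nrp2 and Plxdc2, all 3 cKO libraries lay above all 3 WT libraries, which 7.08% of all genes did. In 3 members, Sema3a, Sema5a and Sema5b, all 3 cKO libraries lay below all 3 WT libraries, which 4.55% of all genes did. Each of these members overlapped between genotypes when the lists were not scaled.

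**Figure D1:**
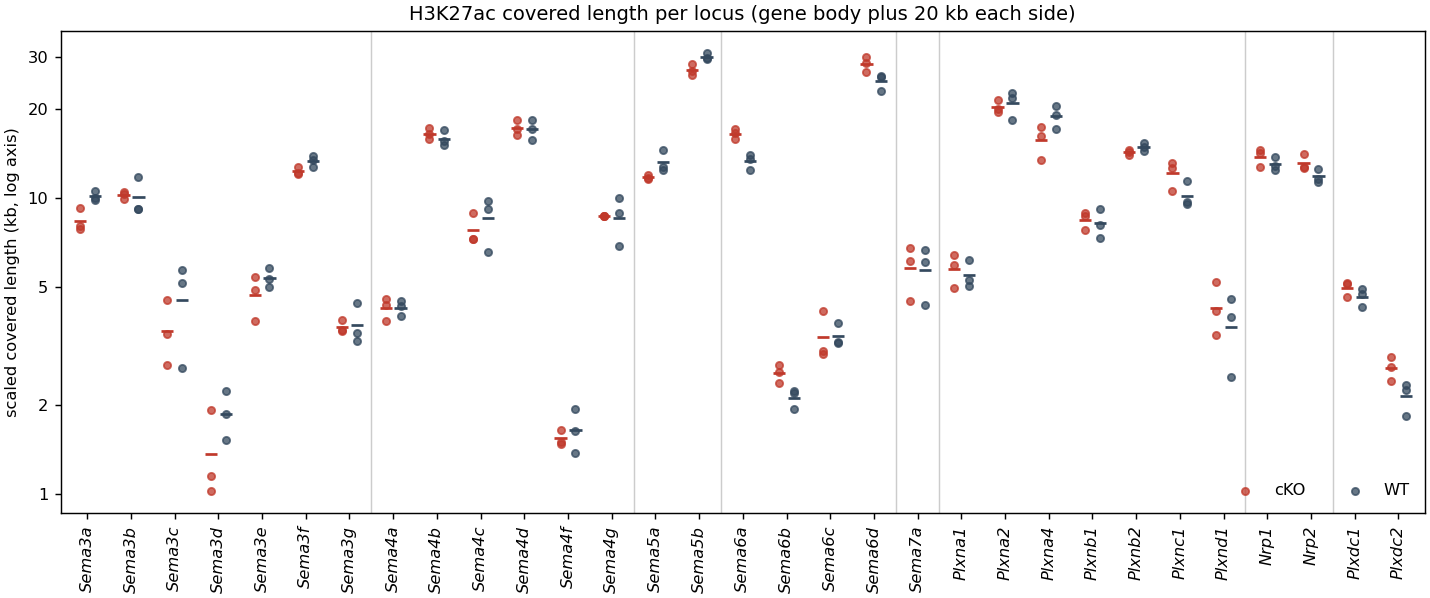
Scaled H3K27ac covered length (kb, log axis) of the 31 member loci, cKO libraries in red left of WT libraries in dark blue, with a bar at each group's mean (n = 3 each) and grey lines between the classes. Sema6d and Sema5b have the longest cover and Sema3d and Sema4f the shortest, and in most members the points of the genotypes interleave.

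The share of the window under peaks, which can be compared between genes of different length, varied widely among the members. It was highest at Plxnb2 (22.0%), Sema4b (20.3%), Sema3b (19.7%), Sema3f (18.6%) and Sema5b (17.6%), averaged over all 6 libraries. It was lowest at Plxdc2 (0.54%), Sema3d (0.658%), Sema3a (1.79%), Sema3e (1.86%) and Sema3c (2.07%). Of the 5 most covered members only Sema5b has no other gene in its window: those of Plxnb2 and Sema4b hold 3 other genes each, that of Sema3b 6 and that of Sema3f 2, whose peaks are counted too. The 5 least covered members have no other gene there. In all, 13 members have a window free of other protein-coding genes, and no 2 member windows overlap.

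Class 3 semaphorins, the secreted ligands, had 6 of 7 loci with a log2 difference below 0 (7 of 7 without scaling or with quantile normalization), and 0 of 7 passed the test. Sema3a, Sema3c, Sema3d and Sema3e all lie within chr5:12383161-17730268, and Sema3b and Sema3f lie close together on chromosome 9. The 7 loci may therefore not be independent. Their lengths summed to 43.0, 43.3 and 46.7 kb in cKO libraries, against 47.8, 50.5 and 49.0 kb in WT libraries. Every cKO sum lay below every WT sum, with means of 44.3 ± 2.04 kb in cKO and 49.1 ± 1.36 kb in WT (SD, n = 3 each) and a log2 ratio of -0.15. These sums overlapped between genotypes when the lists were not scaled. Class sums over chosen members carry no test.

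Sema3a (chr5:13124822-13603485), the ligand that repels cortical axons through Nrp1 and plexin-A receptors, had 8038, 7888 and 9281 bp in cKO libraries, against 10005, 10555 and 9871 bp in WT libraries. All 3 cKO libraries were below all 3 WT libraries, with a log2 difference of -0.26 ± 0.11 (SE; limma, adjusted p = 0.449). Before scaling the genotypes overlapped, with 8053, 7678 and 8109 bp in cKO libraries and 11452, 13361 and 7310 bp in WT libraries. The difference was -0.35 within replicates 1 and 2 and -0.08 in replicate 3. Sema3d (chr5:12383161-12588953), another secreted ligand, had 1023, 1148 and 1924 bp in cKO libraries, against 1518, 2228 and 1862 bp in WT libraries. The third cKO library lay among the WT libraries, and the difference of -0.37 ± 0.15 (SE; limma, adjusted p = 0.422) was -0.57 within replicates 1 and 2 and 0.04 in replicate 3. Sema3c (chr5:17574816-17730268), known in the cortex as an attractant of callosal axons, had 4524, 2724 and 3466 bp in cKO libraries, against 5742, 5159 and 2676 bp in WT libraries. The groups overlapped because the third WT library was the lowest of all 6, and the difference was -0.27 ± 0.19 (SE; limma, adjusted p = 0.714), with -0.56 within replicates 1 and 2 and 0.32 in replicate 3. Sema3f (chr9:107681499-107710475), the ligand of Nrp2 and the gene with the most covered bases of the class, had 12086, 12196 and 12737 bp in cKO libraries, against 12734, 13929 and 13455 bp in WT libraries. The groups touched, and the difference was -0.11 ± 0.11 (SE; limma, adjusted p = 0.808).

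Sema3e, which binds Plxnd1 without a neuropilin, averaged 4721 ± 791 bp in cKO and 5376 ± 407 bp in WT (SD, n = 3 each; log2 -0.18). Sema3b averaged 10267 ± 304 bp in cKO and 10074 ± 1514 bp in WT (0.04), and Sema3g averaged 3665 ± 171 bp in cKO and 3737 ± 601 bp in WT (-0.02). These 3 overlapped between groups, with limma adjusted p of 0.717, 0.937 and 0.973 in the order named.

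Class 4 semaphorins, transmembrane ligands that mostly bind plexin-B receptors, had 3 loci above 0 and 3 below (0 and 6 without scaling, 2 and 4 with quantile normalization), and 0 of 6 passed the test. Their sums averaged 56.2 ± 0.995 kb in cKO and 56.1 ± 5.95 kb in WT (SD, n = 3 each). Sema4d (chr13:51685529-51793678), the ligand of Plxnb1, had 17133, 18447 and 16324 bp in cKO libraries, against 17134, 15771 and 18455 bp in WT libraries. The values of the genotypes interleaved (0.02 ± 0.11 SE; limma, adjusted p = 0.97). The other 5 members of the class, Sema4a, Sema4b, Sema4c, Sema4f and Sema4g, had differences between -0.11 and 0.05 and limma adjusted p of 0.867 to 0.985. At Sema4g the cKO libraries were almost level after scaling, 8709 ± 11.5 bp, while the WT libraries spread over 8593 ± 1592 bp (SD, n = 3 each). Before scaling the cKO libraries had 8714, 8476 and 7619 bp, and the WT libraries 10180, 8698 and 7415 bp.

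Class 5 semaphorins, transmembrane proteins with thrombospondin repeats, had both members below 0 under each of the 4 scalings tried, and 0 of 2 passed the test. After scaling to the list total neither overlapped between genotypes, where 4.55% of all genes had every cKO library below every WT library. Without scaling both overlapped. Sema5b (chr16:35541154-35664261) had 27053, 26137 and 28427 bp in cKO libraries, against 29754, 30971 and 29607 bp in WT libraries. All 3 cKO libraries lay below all 3 WT libraries, with a difference of -0.14 ± 0.11 (SE; limma, adjusted p = 0.729). Sema5a (chr15:32244813-32696341) had 11944, 11650 and 11724 bp in cKO libraries, against 12460, 14547 and 12808 bp in WT libraries. Here too the genotypes did not overlap (-0.16 ± 0.11 SE; limma, adjusted p = 0.697). The class summed to 39.0, 37.8 and 40.2 kb in cKO libraries, against 42.2, 45.5 and 42.4 kb in WT libraries, a log2 ratio of means of -0.15. Before scaling these sums overlapped too.

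Class 6 semaphorins, transmembrane ligands of plexin-A receptors, had 3 of 4 loci above 0 under each of the 4 scalings tried. Of the 4 loci, 0 passed the test. After scaling to the list total, these 3 had every cKO library above every WT library, which 7.08% of all genes did. Without scaling all 3 overlapped between genotypes. The class summed to 52.6, 50.9 and 49.6 kb in cKO libraries, against 45.3, 44.7 and 41.5 kb in WT libraries. All cKO sums lay above all WT sums, with means of 51.0 ± 1.51 kb in cKO and 43.8 ± 2.0 kb in WT (SD, n = 3 each) and a log2 ratio of 0.22. Before scaling these sums overlapped as well. Sema6a (chr18:47245254-47371200), which binds Plxna2 and Plxna4, had 17111, 16692 and 15888 bp in cKO libraries, against 14063, 13594 and 12426 bp in WT libraries. The lowest cKO library was above the highest WT library, and the difference of 0.30 ± 0.11 (SE) had the smallest p of all members (limma, adjusted p = 0.314). It was 0.28 within replicates 1 and 2 and 0.34 in replicate 3. Sema6d (chr2:124089943-124667789), a ligand of Plxna1 and the longest covered locus of the class, had 30057, 28612 and 26799 bp in cKO libraries, against 25796, 25852 and 23103 bp in WT libraries. All cKO libraries lay above all WT libraries (0.19 ± 0.11 SE; limma, adjusted p = 0.605), by 0.18 within replicates 1 and 2 and 0.21 in replicate 3. Sema6b (chr17:56123085-56140343), a ligand of Plxna4, had 2381, 2594 and 2725 bp in cKO libraries, against 2191, 1932 and 2229 bp in WT libraries. The genotypes did not overlap there either (0.23 ± 0.11 SE; limma, adjusted p = 0.521), and the window also holds Plin4, Plin5 and Lrg1. Sema6c was the exception, with 3394 ± 668 bp in cKO and 3434 ± 307 bp in WT (SD, n = 3 each; log2 -0.03, limma, adjusted p = 0.951).

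Sema7a (chr9:57939596-57962865), the lipid-anchored class 7 ligand that promotes axon growth, had 6794, 6138 and 4502 bp in cKO libraries, against 6673, 6092 and 4341 bp in WT libraries. Same-numbered libraries of the genotypes stood close together and the third was lowest in both (0.03 ± 0.11 SE, but -0.08 without scaling and -0.01 with quantile normalization; limma, adjusted p = 0.949).

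**Figure D2:**
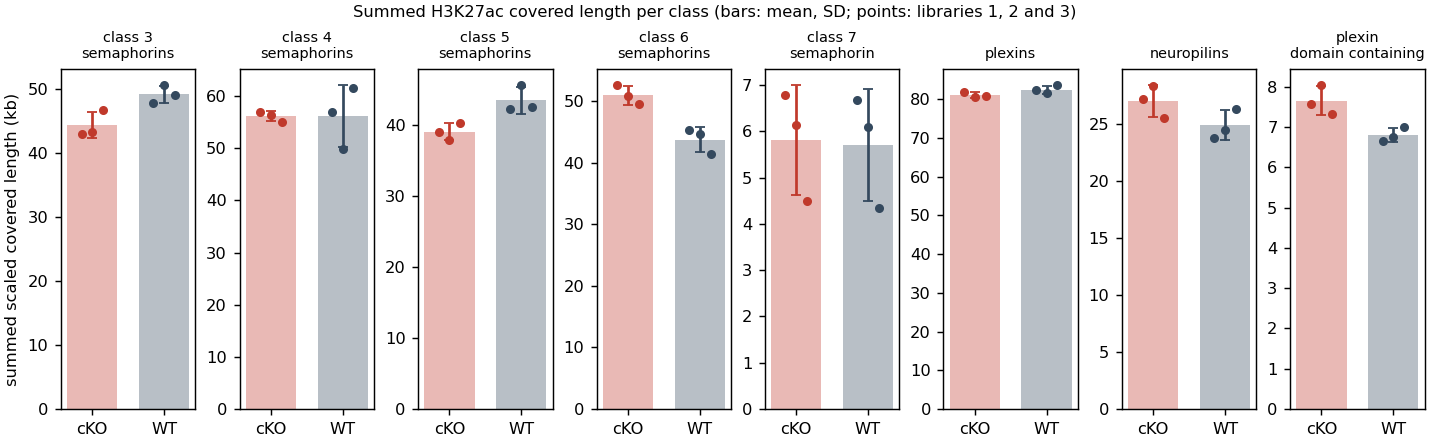
Summed scaled covered length (kb) per class, cKO left of WT in each panel, with bars for the mean, error bars for the SD and points for libraries 1, 2 and 3. The genotypes do not overlap for class 3 and class 5 semaphorins, where cKO is lower, and for class 6 semaphorins and the plexin domain containing genes, where cKO is higher. In each of these classes the sums overlap when the lists are not scaled.

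Plexins, the receptors, had 4 loci above 0 and 3 below (2 and 5 without scaling), all 7 overlapped between genotypes, and 0 of 7 passed the test. They summed to 81.1 ± 0.721 kb in cKO and 82.5 ± 1.02 kb in WT (SD, n = 3 each). Plxna4 (chr6:32144543-32588192), the plexin that pairs with Nrp1 for Sema3a, had 16236, 17405 and 13518 bp in cKO libraries, against 17214, 19201 and 20575 bp in WT libraries. Only the second cKO library reached into the WT range, and the difference was -0.27 ± 0.13 (SE; limma, adjusted p = 0.512), with -0.11 within replicates 1 and 2 and -0.59 in replicate 3. Plxnc1 (chr10:94790866-94945015), the receptor of Sema7a, had 12671, 10549 and 13174 bp in cKO libraries, against 9552, 9697 and 11400 bp in WT libraries. The second cKO library was below the third WT library, and the difference was 0.24 ± 0.11 (SE; limma, adjusted p = 0.525), with 0.25 within replicates 1 and 2 and 0.20 in replicate 3. Plxna2 (chr1:194619791-194816869), a receptor of Sema6a and the plexin with the longest cover, had 19638, 20006 and 21542 bp in cKO libraries, against 22626, 21875 and 18403 bp in WT libraries. Its WT libraries spread on both sides of the cKO libraries (-0.03 ± 0.12 SE; limma, adjusted p = 0.939). Plxnd1, the Sema3e receptor, averaged 4269 ± 878 bp in cKO and 3681 ± 1077 bp in WT (SD, n = 3 each; log2 0.21, limma, adjusted p = 0.742). Plxna1, Plxnb1 and Plxnb2 had differences of 0.06, 0.04 and -0.06, with limma adjusted p of 0.891 to 0.922.

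Neuropilins, the co-receptors of class 3 ligands, had both loci above 0, though Nrp1 was at -0.02 when the lists were not scaled, and 0 of 2 passed the test. Nrp1 (chr8:128358591-128505476), which binds Sema3a and also VEGF, had 14513, 14214 and 12781 bp in cKO libraries, against 12445, 12838 and 13764 bp in WT libraries. The third cKO library lay within the WT range (0.08 ± 0.11 SE; limma, adjusted p = 0.86). Nrp2 (chr1:62703317-62818692), which binds Sema3f, had 12690, 14069 and 12764 bp in cKO libraries, against 11370, 11665 and 12564 bp in WT libraries. No WT library reached the lowest cKO library, though by a narrow margin (0.14 ± 0.11 SE; limma, adjusted p = 0.736). The genotypes overlapped when the lists were not scaled.

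The plexin domain containing genes encode membrane proteins that share an extracellular module with plexins and are not known as semaphorin receptors, and 0 of 2 passed the test. Both lay above 0, but Plxdc1 was at -0.01 when the lists were not scaled. Plxdc2 (chr2:16355740-16761132) had 2410, 2896 and 2692 bp in cKO libraries, against 2340, 1830 and 2255 bp in WT libraries. All cKO libraries lay above all WT libraries (0.26 ± 0.12 SE; limma, adjusted p = 0.5), but the genotypes overlapped when the lists were not scaled. The only Plxdc2 region with a peak in all 6 libraries, chr2:16354996-16357705, differed by 0.03 (limma, adjusted p = 0.972). Peaks in the other Plxdc2 regions had -log10 q of 1.64 to 2.7. Plxdc1 (chr11:97923237-97986669), also known as a marker of tumour endothelium, had 5167, 5138 and 4641 bp in cKO libraries, against 4304, 4924 and 4732 bp in WT libraries, and the groups overlapped (0.09 ± 0.11 SE; limma, adjusted p = 0.852).

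**Figure D3:**
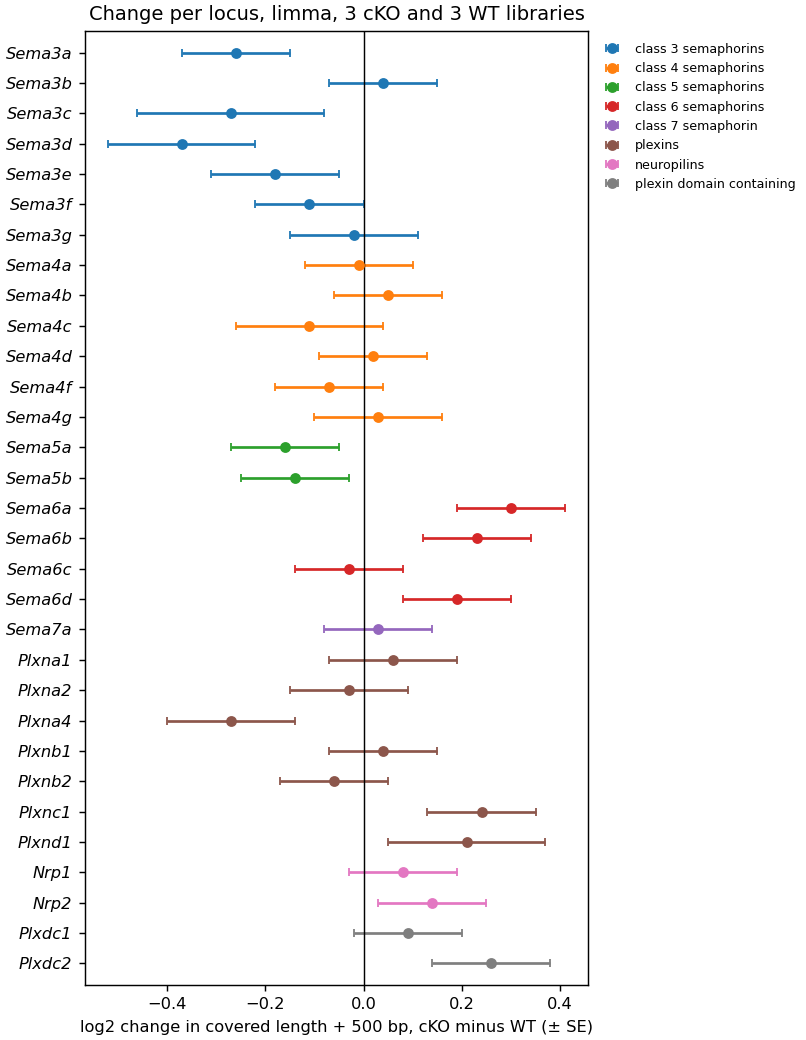
Log2 difference in covered length plus 500 bp, cKO minus WT, for each member (points, limma, with SE bars; 3 cKO and 3 WT libraries), coloured by class. Sema6a lies farthest to the right at 0.30 and Sema3d farthest to the left at -0.37, and 0 of the 31 members passed the test after adjustment over all genes.

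Within the 31 windows the peaks of the 6 lists merged into 329 regions, of which 258 lay inside the member gene. A peak was present in all 6 libraries at 154 of them (46.8%), where all 85907 merged regions gave 46.4%. A single library had the peak at 74 (22.5%), against 21.2% of all regions, and 36 of these 74 belonged to the second WT library, the one with the longest list. At 215 regions the mean scaled length reached the 200 bp needed for testing. Of these, 1 passed (adjusted p under 0.05 over 55985 regions), where 0.995% of all regions tested did: 0.295% as longer in cKO and 0.7% as shorter. An unadjusted p under 0.05 was reached by 18 member regions, 10 longer and 8 shorter in cKO, where 9.5% of all regions tested reached it.

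The region that passed lies inside Sema6d at chr2:124162160-124162690, 531 bp wide and 72.2 kb from the upstream start site whose promoter is printed above. Its scaled length was 503, 414 and 459 bp in cKO libraries, and it is listed at 0 in all 3 WT libraries (limma, adjusted p = 0.00816). It reached the 200 bp minimum only through the cKO libraries, where it is high, and the WT libraries, all at 0, add no spread to the test. It was also the only member region with a peak in every cKO and no WT library, a state of 0.347% of all merged regions. There were 4 such regions without the second WT library (1.18% of all), 3 without the second cKO library (0.56%) and 2 without the third cKO library (0.755%). The significance that the authors' peak caller gave was low, with -log10 q of 4.85, 3.20 and 3.55 in lists that start at 1.31 to 1.39, and the fold enrichment was 4.54, 3.66 and 4.13 in the cKO libraries. The call was lost without the first WT library (adjusted p = 0.071), without the second WT library (0.0531) and with the replicate number as a block (0.0659). Without any 1 of the cKO libraries the region fell under the 200 bp minimum and was not tested. The number of member regions that passed was 0 without the first or second library of either genotype, where 0% (cKO 1, cKO 2, WT 1) and 0.578% (WT 2) of all regions tested passed. It was 6 of 224 without the third cKO library, 0 of them longer in cKO, and 6 of 224 without the third WT library, 1 of them longer, where 2.71% and 2.76% of all regions passed.

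Sema6d otherwise carried much the same set of regions in both genotypes: 17 of its 29 regions had a peak in all 6 libraries. Its widest region, chr2:124609280-124614411, had 5069, 4524 and 5435 bp in cKO libraries, against 3815, 3463 and 4961 bp in WT libraries (log2 0.30 ± 0.15 SE; limma, adjusted p = 0.608). The third WT library overlapped the cKO libraries there. The region over the upstream start site had 1616, 1466 and 1653 bp in cKO libraries and 1689, 1177 and 1768 bp in WT libraries, and that over the downstream start site had 1554, 1514 and 1705 bp in cKO and 1436, 1391 and 1913 bp in WT. At both start sites the genotypes overlapped (limma, adjusted p of 0.95 and 0.972).

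**Figure D4:**
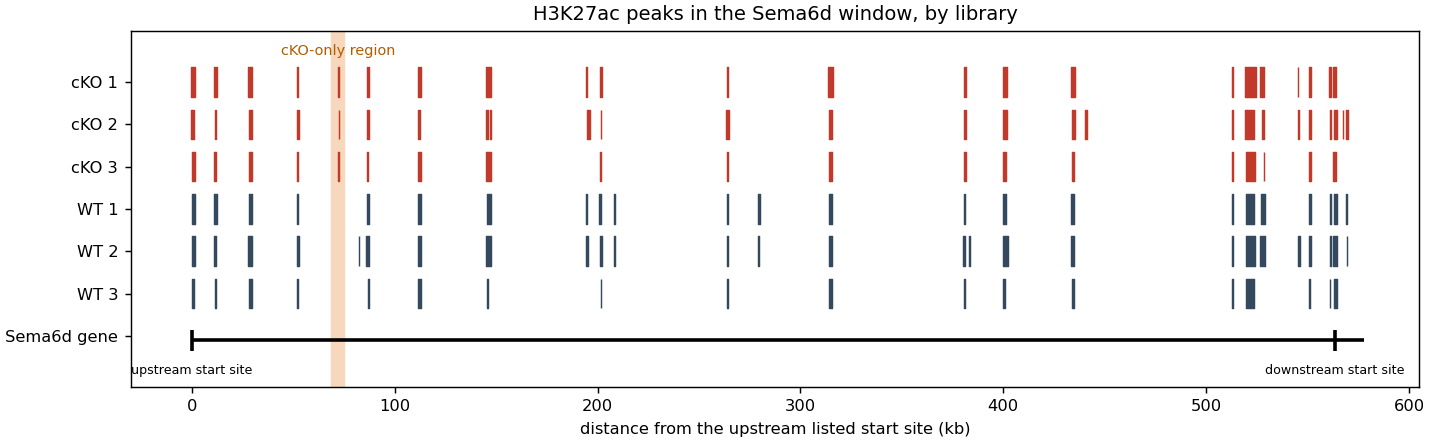
Called H3K27ac peaks across the Sema6d window by library, cKO in red above WT in dark blue, against distance from the upstream start site (kb), with the gene drawn as a black line and ticks at the upstream and downstream start sites. The shaded band at 72.2 kb holds the region that all 3 cKO libraries and no WT library called, while most other peaks recur in all 6 rows.

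The reverse state, a peak in every WT and no cKO library, was also found at 1 member region, where 0.907% of all merged regions had it. It lies inside Plxna4 at chr6:32362232-32362876 (645 bp wide). It is listed at 0 in all 3 cKO libraries and had 228, 271 and 597 bp in WT libraries, with -log10 q of 1.76, 3.32 and 1.82. Its covering peaks averaged too few bases over the 6 libraries to be tested. Without the third WT library, the one with the shortest list, there were 18 such regions, where 5.23% of all merged regions had that state. There were 2 without the first WT library (1.22% of all) or without any 1 of the cKO libraries (1.19% to 1.51% of all).

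Further regions with small p were picked after their values were seen, and none passed in the fit described. A region 14404 bp from the nearer start site of Sema4b, chr7:80171001-80172466, had 1453, 1278 and 1459 bp in cKO libraries, against 487, 461 and 713 bp in WT libraries. No WT library reached the cKO range (1.21 ± 0.17 SE; limma, adjusted p = 0.0889), although the Sema4b locus as a whole differed by 0.05. Inside Sema3d, chr5:12498222-12499317 had 0, 0 and 181 bp in cKO libraries, against 574, 866 and 548 bp in WT libraries (limma, adjusted p = 0.204). Inside Plxna4, chr6:32314542-32315665 had 447, 304 and 407 bp in cKO libraries, against 978, 675 and 1098 bp in WT libraries (-1.05 ± 0.23 SE; limma, adjusted p = 0.293). In both, no cKO library reached the WT range. Inside Plxnc1, chr10:94932406-94934329 had 1099, 1042 and 2202 bp in cKO libraries, against 326, 134 and 0 bp in WT libraries (limma, adjusted p = 0.334). The Sema3d and Plxnc1 regions reached the 200 bp minimum only through the genotype where they were longer. Sema6a held 3 such regions, all inside the gene and all longer in every cKO than in every WT library, with limma adjusted p of 0.271, 0.502 and 0.512. The first of them, chr18:47330235-47331656, had 1326, 1086 and 893 bp in cKO libraries, against 736, 559 and 358 bp in WT libraries.

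Regions at start sites were more often shared than the rest. In the windows of the 24 members with a listed start site, 29 regions lay within 1 kb of a start site of the member itself. Of these 29, 24 (82.8%) had a peak in all 6 libraries, with a median width of 2232 bp. Of 226 regions farther away, 100 (44.2%) did, with a median width of 965.5 bp. All merged regions, measured to the listed start sites of any gene, gave 85.8% near and 39.3% farther away, with median widths of 1786 and 831 bp. Member regions at start sites of neighbouring genes were counted as farther away, so these shares are not a like-for-like background for the members.

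Over the 35 listed promoters themselves, 25 (71.4%) lay under a peak in every library and 6 (17.1%) in none, against 42.2% and 50.7% of all 32851 promoters in the table. Some genes have several listed promoters, so these are not independent: Sema4a has 4 and Sema4d 3. The GC box was found in 26 of 35 member promoters (74.3%) and in 35.7% of all promoters of the same length. The E box CAGATG (or CATCTG on the other strand) was found in 2 of 35 (5.71%) and in 17.2% of all, and the TATA box TATAAA (or TTTATA) in 0 of 35 and in 13.6% of all; no match says only that these letters are not in the window. Member promoters with a peak in all 6 libraries held a median of 23 CpG dinucleotides and those with no peak a median of 3, and over all promoters the medians were 21.5 and 3. The downstream Sema6d promoter printed above had full cover with 6 CpG. The promoters with no peak in any library were those of Sema3a, the most downstream of Sema4a, the lower 2 of Sema4d by coordinate, and the more downstream ones of Sema6b and Sema6c.

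**Figure D5:**
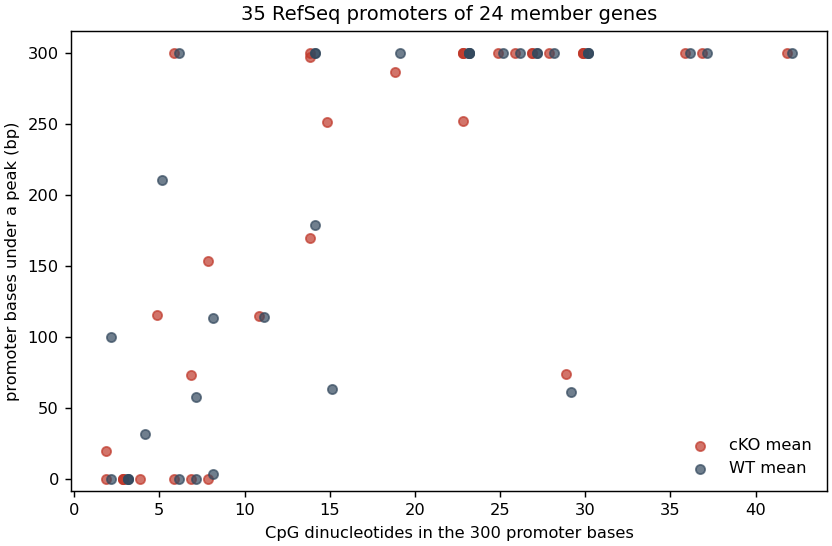
Mean promoter bases under a peak (of 300) against the number of CpG dinucleotides for the 35 promoters of 24 members, with cKO in red and WT in dark blue, points shifted sideways to show both. Nearly all promoters with more than 20 CpG are fully covered in both genotypes, and those with 3 or fewer are mostly uncovered.

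The strongest peak of a member window, by the authors' fold enrichment, was a further description of the loci, ranked only within its own list. In 5 of the 6 lists it was highest in the Sema3b window (22.91, 23.75 and 21.93 in cKO; 22.31, 19.61 and 18.42 in WT), where it lay in the flank, at the neighbouring gene Gnai2, and at or above the 99.7th percentile of each list. Inside Sema4c, the highest in the second WT list, it was similar (22.50, 22.25 and 18.22 in cKO; 19.67, 20.06 and 15.70 in WT). The weakest was at Plxnd1, with 4.73, 4.68 and 4.66 in cKO and 4.40, 4.47 and 4.88 in WT. Sema3a, with little of its long window covered, still held a strong peak, with 15.13, 16.82 and 14.10 in cKO and 16.92, 16.65 and 15.39 in WT.

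Of 61 other genes of the pathway (the remaining plexins, CRMP and MICAL family proteins, small GTPases and their regulators, kinases and co-receptors), 58 could be tested and 0 passed in either direction. Of these 58, 40 lay above 0 and 18 below, where 65.3% of all genes tested lay above 0. Their median was 0.05, the same as that of all genes. An unadjusted p under 0.05 was reached by 8 of the 58, where 9.95% of all genes tested reached it. The smallest p belonged to Rasa1, a Ras GTPase-activating protein, with 2793, 3212 and 3610 bp in cKO libraries, against 4761, 4805 and 4279 bp in WT libraries. Every cKO library was below every WT library (-0.47 ± 0.12 SE; limma, adjusted p = 0.119). Limk1, the kinase that inactivates cofilin downstream of plexins, had 9350, 9634 and 9898 bp in cKO libraries, against 7802, 7303 and 8253 bp in WT libraries (0.29 ± 0.11 SE; limma, adjusted p = 0.345). Dpysl3, a CRMP family member, had 16731, 13494 and 15622 bp in cKO libraries, against 11710, 11339 and 13382 bp in WT libraries (0.32 ± 0.12 SE; limma, adjusted p = 0.349). In Limk1 and Dpysl3 no WT library reached the cKO range, nor did one in Micall1, Dpysl5 and Plxna3. Every cKO library lay above every WT library in 7.08% of all genes tested. Dpysl4, like Rasa1, had every cKO library below every WT library, which 4.55% of all genes did. The other 5 with small p were Micall1 (0.35), Cspg4 (0.49), Farp2 (0.34), Limk2 (0.35) and Nck2 (-0.28), with limma adjusted p of 0.235 to 0.423. Of these 5, all but Micall1 overlapped between genotypes.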

How the data were processed

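Per the labels' protocols, H3K27ac was precipitated from native, micrococcal nuclease digested chromatin of whole E15.5 cortex. FastQC, cutadapt, Bowtie2 2.2.8 and MACS2 2.1.1 on mm10 are named in the submitters' processing notes; their settings, and any role of the inputs, were not given in the sources used here. In all, the authors deposited 1 broad peak list per H3K27ac library, with positions, a fold enrichment ratio, -log10 p and -log10 q values, and a score meant for display that was left out. The deposited lists give neither read counts nor depth, so a longer list may come from a deeper library.

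Covered bases were summed per locus and per merged region (peaks overlapping by at least 1 bp or touching), scaled to the same list total, and tested as log2 of length plus 500 bp (loci) or 100 bp (regions) with limma 3.58.1 in R 4.3.3 (lmFit, eBayes), genotype plus batch, on all features with a mean of at least 1000 bp (loci) or 200 bp (regions). Calls used an adjusted p (Benjamini-Hochberg) under 0.05. Presence in one genotype only and class sums are descriptions. The scripts were tested on simulated data. Tables were made with Python 3.11.15 and pandas 2.3.3.

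Values per library are given for the 10 members with the smallest p, the member with the longest cover in each class, Nrp2 (chosen after its values were seen), called regions, regions present in one genotype only, and pathway genes among the 8 with the smallest p. Members, lists and tests were chosen with earlier results of these data known. The RefSeq gene table gives neither strand nor exons, so positions are stated as inside or outside a gene. No 2 lists shared more than 4 peaks with the same start and end. The summed cover of the cortical markers is not reported here.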

Additional observations from a re-analysis of the deposited data

How the results depend on the processing

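No member locus passed in any of the 21 alternatives (smallest adjusted p between 0.137 and 0.787), while the genes called over the whole table ranged between 1 and 232, against 106. Depth is unknown, so a peak missing from a short list may be a peak not called. For the 17 members named by rule, 326 values kept their direction and 30 reversed, all of them without a call. With peaks of -log10 q of at least 5, Sema3d was at 0.14, Sema5a at 0.04, Sema7a and Plxdc2 at 0.00 and Plxdc1 at -0.08. In lists of equal length Sema4d was at -0.05. Leaving out 1 library put Sema7a at -0.01 (without cKO 1 or WT 2), Plxna2 at 0.01 (without cKO 1) or 0.02 (without WT 1) and Sema4d at -0.04 (without cKO 2 or WT 2), within ranges of -0.01 to 0.07 for Sema7a and -0.04 to 0.11 for Sema4d. Without scaling, Sema4d was at -0.09, Sema7a at -0.08, Nrp1 at -0.02 and Plxdc1 at -0.01, and quantile normalization put Sema7a at -0.01. Within 2 kb of the gene ends, Sema3d was at 0.16, Sema3f at 0.04, Sema5b at 0.13, Plxna2 at 0.15 and Plxna4 at 0.05. With 100 kb flanks, Sema3f was at 0.02, Sema4d at 0.00 and Sema7a at -0.08, and in the gene body alone Sema4d was at -0.05. Counting peaks put Sema4d at -0.03, Sema5b at 0.01 and Nrp1 at -0.08, and scaling to the sum over gene windows (added after seeing the data; 42 genes called) put Sema4d at -0.01. Replicates 1 and 2 alone, also added after seeing the data, called 2 genes and 0 members. The median of the members was -0.09 without scaling, 0.10 at gene ends and -0.03 in gene bodies.

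The number of member regions called, 1 of 215 at first (0.995% of all regions), was 2 of 120 with -log10 q of at least 5 (1.68% of all), in Plxnc1 and Sema6a, and 7 of 186 in lists of equal length (1.8% of all), in Sema6d, Plxna1, Sema4b, Plxnc1, Plxdc1 and Sema4d. It was 0 to 6 with 1 library left out: 6 without cKO 3 (in Plxna2, Sema3d, Sema3a and Plxna4) and 6 without WT 3 (in those genes and Sema6d). The cKO-only count of 1 of 329 was 2 of 150 with -log10 q of at least 5, where 0.566% of all merged regions had that state. It was 6 of 242 in lists of equal length (0.985% of all) and 3 of 329 when 50% of a region had to be covered (0.484%). With 1 library left out it was 1 to 4 of 329, where 0.36% to 1.18% of all had it. The WT-only count of 1 was 0, 2 and 2 in the same alternatives (0.947%, 0.908% and 1.03% of all). With 1 library left out it was 1 to 18, where 1.01% to 5.23% of all had it. The 18 came without WT 3, the shortest list. Correlations of same-numbered deviations were 0.132, 0.063 and 0.261, and those of other pairs of a cKO and a WT library ran from -0.225 to 0.167. Libraries cKO 2 and cKO 3 correlated best with the WT library of their own number, and cKO 1 with WT 2 (0.167). These values do not settle whether the replicate numbers pair the libraries. With the replicate block, 0 members and 168 genes were called, the median of the members stayed at 0.02, and 0 of 55985 regions were called (adjusted p = 0.0659 for the Sema6d region).

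Class sums, as log2 ratios, moved by more than 1 SD in some alternatives. With -log10 q of at least 5 they were 0.02 for all members, 0.03 for ligands, -0.08 for class 3, -0.06 for class 5, 0.30 for class 6 and -0.07 for the plexin domain containing genes, and in lists of equal length 0.29 for class 6. Without scaling they were -0.14 for all members, -0.16 for ligands, -0.12 for receptors, -0.30 for class 3, -0.12 for class 4, -0.31 for class 5, 0.06 for class 6, -0.17 for plexins, -0.01 for neuropilins and 0.03 for the plexin domain containing genes. With 100 kb flanks class 3 was at -0.08, class 6 at 0.14 and plexins at -0.01. In gene bodies alone ligands were at -0.03, class 3 at -0.23, class 7 at 0.35 and the plexin domain containing genes at 0.39. The causes of these shifts were not tested.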
